A study of Homo sapiens with 6 samples.

Results

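Small nucleolar RNA (snoRNA) host genes were the subject: genes, most of them non-coding, whose introns carry snoRNAs. The members were every gene in the deposited tables named SNHG plus a number, together with GAS5, ZFAS1, EPB41L4A-AS1 and DANCR, a rule on names that used no measured value. It found 29 gene identifiers under 28 names (SNHG28 names 2 of them) among 58735 genes. The samples were cultures of MDA-MB-231, a human triple-negative breast cancer (TNBC) line labelled wild type, treated for 24 h with SCH, an extract of the herb Salvia chinensis Benth, at 100 mg/l (3 samples) or with vehicle (3 samples), whose composition was not given in the sources used here. Poly(A) RNA was sequenced and the design describes the 3 samples of each group as biological repeats, all of this single line at a single dose and time. Counts on genes came to 20291379, 18714240 and 18334857 in the vehicle samples and 16836369, 17979434 and 18414924 in the SCH samples. Levels are given as CPM, the counts of a gene relative to the TMM-adjusted depth of its sample, which compare a gene between samples, or as the deposited FPKM, which are per length and compare genes with each other. Changes are log2 fold changes of SCH against vehicle from edgeR's quasi-likelihood test, called at a Benjamini-Hochberg adjusted p below 0.05 over 14736 tested genes.

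Of the 5 markers fixed for the line, VIM, AXL, CAV1 and CD44 were abundant (264, 293, 103 and 96.6 FPKM on average with vehicle), whereas SPARC was nearly absent at 0.0146 FPKM. Among the 7 fixed as low or absent, the hormone receptor genes ESR1 and PGR and the epithelial cadherin CDH1 were at or near 0, while ERBB2 stood at 6.67, EPCAM at 6.53, GATA3 at 3.84 and FOXA1 at 0.995 FPKM. These 4 were called, FOXA1 and ERBB2 raised (log2 1.16 and 0.29) and EPCAM and GATA3 lowered (log2 -0.52 and -0.79). The 5 markers of immune, endothelial, fibroblast and fat cells summed to 0.842, 0.837 and 0.804 FPKM with vehicle. With SCH they summed to 0.976, 1.05 and 0.993 FPKM, so every SCH sum was the higher. COL1A1 was the most abundant of them on average and ADIPOQ was at 0 in every sample. Of 3 that could be tested COL1A1 rose, PTPRC fell and PECAM1 did not pass. The summed level of the markers of the line was itself lower with SCH, at 749, 764 and 755 FPKM with vehicle and 485, 494 and 489 FPKM with SCH, where AXL, CAV1 and VIM fell and CD44 did not pass the test (log2 0.033). The part of that change in the results on host genes was not tested.

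A snoRNA is trimmed out of the intron of its host after splicing and bound by a set of core proteins. Box C/D snoRNAs guide 2′-O-methylation and box H/ACA snoRNAs guide pseudouridylation, mostly of ribosomal RNA, and the related small Cajal body RNAs (scaRNAs) do the same for the RNAs of the spliceosome. Many host genes start with a 5′ terminal oligopyrimidine (TOP) tract, as the mRNAs of ribosomal proteins do, and their spliced RNAs, which hold only short reading frames, are known as targets of nonsense-mediated decay. Several are studied as cancer-associated long non-coding RNAs, GAS5 having been named for its accumulation in growth-arrested cells.

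SCH lowered most of the host genes that could be measured. Of the 22 members that passed the filter on low counts, 19 were lowered, none was raised and 3 did not pass the test, where 29.4% of all tested genes were lowered and 29.3% raised (58.7% in either direction). The median log2 fold change of the 22 was -0.70, beside -0.0034 over all tested genes. In 20 of the 22, every SCH sample lay below every vehicle sample in CPM, as it did for 31.3% of all tested genes. Host genes are mainly well expressed non-coding genes, and so the same counts were taken over comparable genes: 22.9% of the 1391 tested long non-coding genes were lowered and 13.2% raised, and among the 222 of them with a mean of at least 100 counts 36.0% were lowered and 24.3% raised. Of the members with a mean of at least 100 counts, 16 of 17 were lowered. Both long non-coding sets were taken by gene type and include the members, so they are not separate from them. Passing the filter can itself depend on the group in which a gene is high, so these counts describe the members that were tested and not the whole family.

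As a share of all counts on genes, the members together took up 0.169%, 0.163% and 0.157% in the vehicle samples and 0.111%, 0.109% and 0.113% in the SCH samples. The groups stood apart, at 0.163% ± 0.00584 with vehicle and 0.111% ± 0.00211 with SCH (SD, n = 3), a ratio of 0.682. For comparison, the share of the ribosomal protein genes went from 6.37% ± 0.165 to 4.89% ± 0.116, a ratio of 0.767. In bulk RNA of this kind, fewer cells that express a gene and less RNA per cell cannot be told apart, and shares say nothing of the amount of RNA per cell. SNHG5, GAS5 and SNHG1 held 46.3% ± 0.128 of the counts of the family with vehicle and 49.4% ± 0.423 with SCH, and without SNHG5, the member with the most counts, the ratio of the shares was 0.690.

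**Figure D1:**
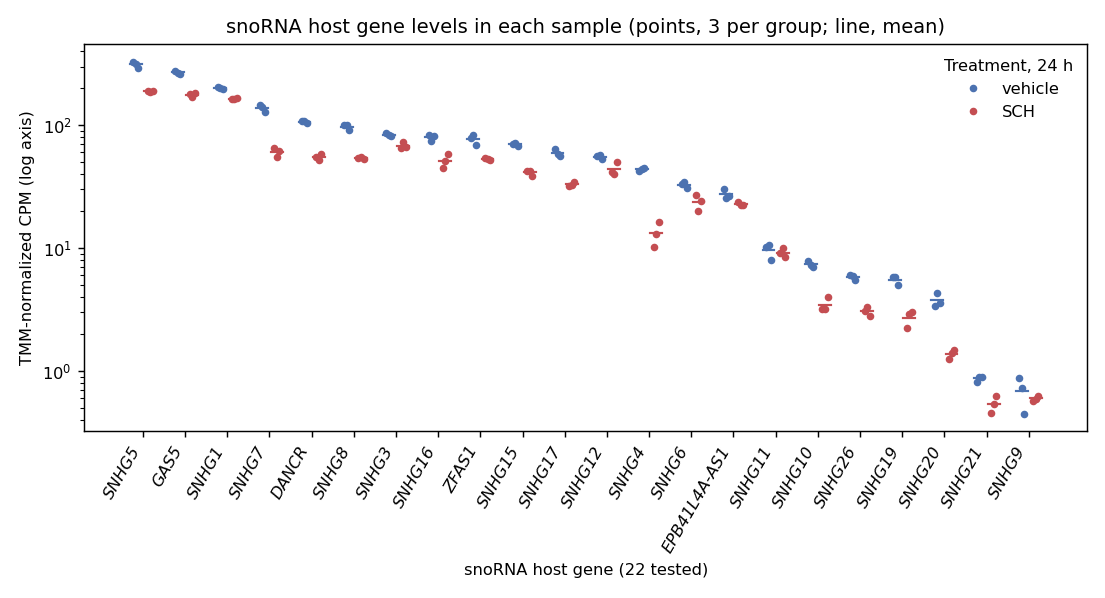
TMM-normalized CPM (log axis) of the 22 tested snoRNA host genes in each sample, with vehicle in blue and SCH in red, points for the 3 samples of a group and a line for their mean. The genes run from SNHG5, at 312 CPM on average with vehicle, to SNHG9, and the red points lie below the blue ones for all but SNHG11 and SNHG9.

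Per length, the most abundant members with vehicle were SNHG5 (114, 108 and 101 FPKM) and SNHG8 (106, 104 and 94.9 FPKM), whose samples overlapped. GAS5 (74.2, 71.2 and 69.3 FPKM), SNHG1 (53.02, 52.1 and 50.3 FPKM) and DANCR (45.9, 45.8 and 44.3 FPKM) followed, each apart from the next. Among the tested members, the means declined from there through ZFAS1 at 32.99 and SNHG7 at 30.9 FPKM to SNHG20 at 0.597 FPKM. Large and small changes occurred at high and at low levels alike.

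Within the hosts of box C/D snoRNAs, 7 members with such snoRNAs and no box H/ACA snoRNA in the annotation were tested, and all were lowered (median -0.63 on the log2 scale), beside 29.4% of all tested genes. Their snoRNAs are recognised by the box C and box D motifs, which are shown here for a snoRNA of SNHG1, of SNHG5, of ZFAS1 and of SNHG19 because these elements define the class. In the annotation SNORD50B lies wholly, and SNORD30 by 34 of its 70 bases, in an exon of the host, and the other two in no exon. Sequences are DNA letters of GENCODE release 29 on GRCh38, 5′ to 3′ on the strand of the gene, with the first TGATGA (box C) and the last CTGA (box D) in capitals.
SNORD30 (chr11:62853663-62853732, minus strand): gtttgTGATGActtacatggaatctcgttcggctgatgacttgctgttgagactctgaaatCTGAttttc
SNORD50B (chr6:85677589-85677658, minus strand): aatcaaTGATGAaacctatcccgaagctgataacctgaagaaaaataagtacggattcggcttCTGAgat
SNORD12B (chr20:49280319-49280409, plus strand): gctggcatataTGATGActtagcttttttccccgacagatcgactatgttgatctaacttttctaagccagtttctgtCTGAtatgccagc
SNORD60 (chr16:2155023-2155105, minus strand): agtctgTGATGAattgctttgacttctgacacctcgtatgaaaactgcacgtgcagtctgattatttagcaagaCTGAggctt
Searched on the RNA strand alone, TGATGA occurred in 77.4% and CTGA in 98.3% of the 288 SNORD transcripts of that annotation, and 76.4% had a CTGA after the TGATGA. Each of the 4 sequences above had both, and their box C and box D lay near the ends of the snoRNA.

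SNHG5, a host of SNORD50B and the most abundant member (chromosome 6, 85660950 to 85678748, minus strand, GRCh38), stood at 329.6, 315 and 293 CPM in the vehicle samples and 190.1, 186 and 189 CPM in the SCH samples. It went from 312 ± 18.5 to 188 ± 1.99 CPM (SD, n = 3), a log2 fold change of -0.73 ± 0.0504 (SE) with an adjusted p of 1.86e-11 (edgeR), and the SCH samples were tightly grouped well under the lowest vehicle sample. GAS5, known as a decoy of the glucocorticoid receptor (chromosome 1, 173863900 to 173868882, minus strand), measured 279, 267 and 261 CPM with vehicle against 180.4, 169 and 182 CPM with SCH. That was a fall from 269 ± 9.10 to 177 ± 7.16 CPM (SD, n = 3), or -0.60 ± 0.0496 (SE) on the log2 scale (edgeR adjusted p 3.65e-10). The GENCODE 29 annotation that the files match places no snoRNA inside GAS5, whereas RefSeq places 11 there, 10 of the SNORD and 1 of the SNORA type, so GAS5 is not among the 7 counted above.

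SNHG1, which carries a run of box C/D snoRNAs (chromosome 11, 62851988 to 62855914, minus strand), was at 206, 202 and 196 CPM in the vehicle samples and 163, 163 and 167 CPM in the SCH samples. Its groups stood apart although its change was among the smallest of the called members, from 201 ± 5.31 to 164 ± 2.59 CPM (SD, n = 3), -0.29 ± 0.048 (SE) on the log2 scale (edgeR adjusted p 1.47e-05). SNHG16, host of the SNORD1 family (chromosome 17, 76557766 to 76565348, plus strand), gave 84.03, 73.8 and 81.4 CPM in the vehicle samples and 45.1, 51.5 and 58.3 CPM in the SCH samples, and ZFAS1, the antisense RNA of ZNFX1 described in mammary gland development (chromosome 20, 49278178 to 49295738, plus strand), gave 78.1, 82.9 and 68.7 CPM in the vehicle samples and 54.6, 53.6 and 52.6 CPM in the SCH samples. Both fell with every SCH sample lower, SNHG16 by 0.63 ± 0.0746 (SE) and ZFAS1 by 0.52 ± 0.0655 (SE) on the log2 scale. SNHG6, host of SNORD87 (chromosome 8, 66921684 to 66926398, minus strand), read 33.3, 34.5 and 30.8 CPM with vehicle against 26.9, 19.97 and 23.98 CPM with SCH, a change of -0.48 ± 0.0891 (SE) (edgeR adjusted p 6.93e-05). SNHG16, ZFAS1 and SNHG6 share 30.6%, 42.9% and 29.3% of their exonic bases with exons of other genes, snoRNAs left out, so part of their reads may be assigned elsewhere or come from elsewhere, while SNHG5 and SNHG1 share none and GAS5 1.16%. The remaining box C/D hosts, SNHG19 and SNHG26, had means of 76.0 and 82.0 counts and fell by 1.02 ± 0.172 (SE) and 0.93 ± 0.159 (SE) on the log2 scale.

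Among the hosts of box H/ACA snoRNAs alone, 8 of 10 tested members were lowered, with a median of -0.80, beside 29.4% and -0.0034 over all tested genes, and SNHG4 had the steepest fall of the 22 tested members. SNHG4, host of SNORA74 genes (chromosome 5, 139274102 to 139284899, plus strand), stood at 42.5, 43.7 and 45.04 CPM in the vehicle samples and 10.1, 12.9 and 16.5 CPM in the SCH samples. The highest SCH sample was far below the lowest vehicle sample, and the level went from 43.7 ± 1.27 to 13.2 ± 3.16 CPM (SD, n = 3), to 30.3% of vehicle (-1.72 ± 0.105 (SE) on the log2 scale, edgeR adjusted p 2.21e-12). SNHG7, host of SNORA17 genes (chromosome 9, 136721366 to 136728184, minus strand), stood at 147, 141 and 129 CPM with vehicle against 65.4, 55.4 and 62.1 CPM with SCH. It was thereby reduced to 43.8% of vehicle, -1.19 ± 0.0642 (SE) on the log2 scale (edgeR adjusted p 2.87e-13), with a wide gap between the groups. Of their exonic bases, SNHG4 shares 16.6% with MATR3 and SIL1 and SNHG7 25.2% with FAM69B.

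DANCR, named for keeping progenitor cells from differentiating and host of SNORA26 (chromosome 4, 52712404 to 52720351, plus strand), measured 108, 108 and 105 CPM in the vehicle samples and 54.7, 52.01 and 57.8 CPM in the SCH samples. It fell to 51.2% of vehicle, from 107 ± 2.10 to 54.8 ± 2.92 CPM (SD, n = 3), -0.97 ± 0.0571 (SE) on the log2 scale (edgeR adjusted p 1.31e-12). SNHG8, host of SNORA24 (chromosome 4, 118278709 to 118279823, plus strand), measured 101, 99.5 and 90.8 CPM with vehicle against 54.1, 55.02 and 53.3 CPM with SCH, a log2 fold change of -0.84 ± 0.0585 (SE). Both genes had SCH samples close to each other and far from the vehicle samples. SNHG17, host of the SNORA71 family (chromosome 20, 38420588 to 38435353, minus strand), measured 64.6, 57.8 and 55.8 CPM in the vehicle samples and 31.9, 32.9 and 34.8 CPM in the SCH samples, a log2 fold change of -0.84 ± 0.0695 (SE). SNHG15, a short-lived RNA that hosts SNORA9 (chromosome 7, 44983023 to 44986961, minus strand), measured 70.95, 71.1 and 67.9 CPM with vehicle against 42.7, 42.7 and 38.6 CPM with SCH, a log2 fold change of -0.76 ± 0.0624 (SE). In these 4 genes each SCH sample lay well below each vehicle sample, with edgeR adjusted p-values of 3.92e-10 or smaller, and SNHG8, SNHG17 and SNHG15 share no exonic base with a gene other than snoRNAs, whereas DANCR shares 11.9%.

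Falls were smaller for SNHG3, EPB41L4A-AS1 and SNHG12. SNHG3, host of the SNORA73 pair, which is needed for cleavage of the ribosomal RNA precursor (chromosome 1, 28505980 to 28510892, plus strand), read 85.97, 82.8 and 82.3 CPM in the vehicle samples and 64.9, 73.5 and 66.2 CPM in the SCH samples, -0.30 ± 0.0591 (SE) on the log2 scale (edgeR adjusted p 1.57e-04). EPB41L4A-AS1, host of SNORA13 (chromosome 5, 112160526 to 112164276, plus strand), read 30.1, 25.6 and 26.8 CPM in the vehicle samples and 23.6, 22.3 and 22.2 CPM in the SCH samples, -0.28 ± 0.0805 (SE) (edgeR adjusted p 0.00509). Its adjusted p was the largest of the 19 called members. Without vehicle replicate 1 the change was -0.20 with an edgeR adjusted p of 0.0707. With library size only it was -0.17 with an edgeR adjusted p of 0.0685, so the call was lost there too. Of the exonic bases of EPB41L4A-AS1, 49.6% lie in exons of EPB41L4A. SNHG12, which holds both a box C/D and box H/ACA snoRNAs (chromosome 1, 28578538 to 28583132, minus strand), read 56.2, 56.8 and 53.6 CPM with vehicle against 41.5, 39.9 and 50.4 CPM with SCH, -0.34 ± 0.0747 (SE) (edgeR adjusted p 4.75e-04). In all 3 genes the groups were apart by a narrow margin.

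The hosts of scaRNAs were expressed at low levels. SNHG10, host of SCARNA13 (chromosome 14, 95532297 to 95534872, minus strand), read 7.89, 7.24 and 7.08 CPM in the vehicle samples and 3.21, 3.17 and 4.00 CPM in the SCH samples, a fall to 46.8% of vehicle (-1.1 ± 0.152 (SE) on the log2 scale, edgeR adjusted p 1.40e-06). SNHG20, host of SCARNA16, had 66, 77 and 64 counts with vehicle and 22, 26 and 28 with SCH, which was 36.9% of vehicle (-1.44 ± 0.217 (SE) on the log2 scale, edgeR adjusted p 4.73e-06). SNHG21, host of SCARNA15, had a mean of 13 counts and did not pass the test at -0.67 ± 0.362 (SE) (edgeR adjusted p 0.117), although its groups did not overlap. Of their exonic bases, SNHG10 shares 20.1% with GLRX5, while SNHG20 and SNHG21 share 8.89% and 72.9% with exons of other genes, snoRNAs left out. SNHG10 and SNHG20, together with SNHG4, SNHG7 and SNHG19, made up the 5 called members past a log2 fold change of -1, as did 4.88% of all tested genes. With library size only 3 of the 5 were past it, SNHG10 being at -0.9934 and SNHG19 at -0.9206, and with limma on log2(FPKM + 1) 2 were.

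**Figure D2:**
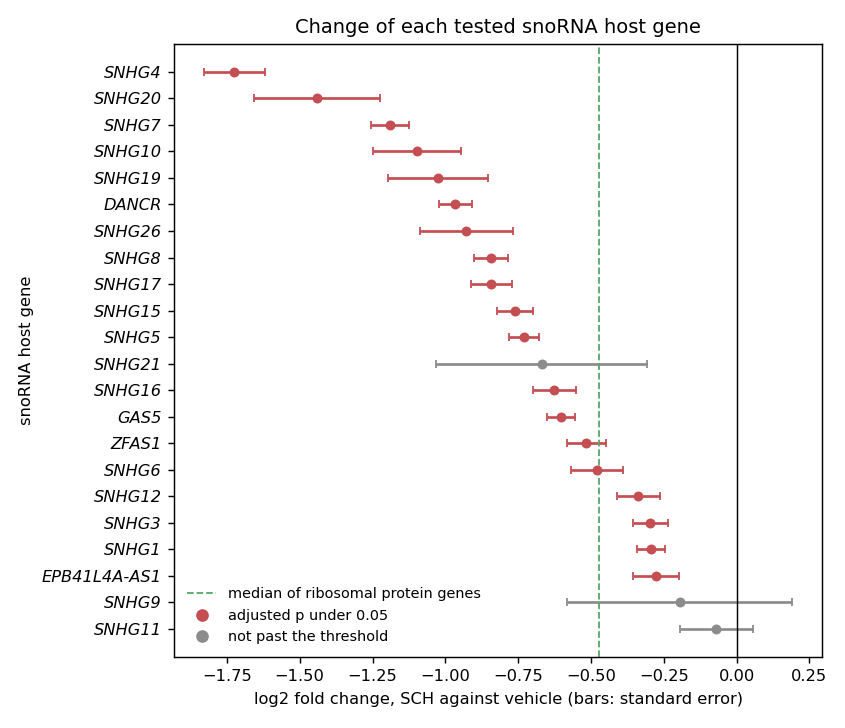
Log2 fold change of SCH against vehicle for each of the 22 tested host genes (points) with its standard error (bars), in red for an edgeR adjusted p below 0.05 and grey otherwise, beside the median of the ribosomal protein genes (dashed line, -0.47). All 22 points lie left of 0, from SNHG4 at -1.72 to SNHG11 at -0.069.

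SNHG11 and SNHG9 were the tested members whose groups overlapped. SNHG11, a host of SNORA60 and SNORA71E, measured 10.2, 10.7 and 7.98 CPM in the vehicle samples and 9.12, 9.93 and 8.52 CPM in the SCH samples, -0.07 ± 0.124 (SE) on the log2 scale (edgeR adjusted p 0.657). Its mean was 173 counts, between those of EPB41L4A-AS1 and SNHG10, both of which were called. SNHG9, host of SNORA78, had only 11.8 counts on average and an estimate of -0.19 ± 0.386 (SE) (edgeR adjusted p 0.689), so that a fall near the median of the tested members lay within 2 standard errors of the estimate. A further 7 gene identifiers did not pass the filter: SNHG14, SNHG18, SNHG22, SNHG25, SNHG27 and both entries of SNHG28. Of these, 3 had 3 counts or fewer in every sample, including 2 with no count in any. SNHG14, whose long transcript carries the SNORD115 and SNORD116 clusters of the imprinted Prader-Willi region, had a mean of 2.5 counts.

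Reads on the snoRNAs themselves were few in these libraries, which were selected on poly(A) tails and for fragment length. The annotation places snoRNAs inside 27 of the 29 members, 84 of them in SNHG14 and 53 in the others. Of these 53, 31 have at least 1 base in an exon of the host and none of these had a count, and 18 of the rest had any. Whether a read that falls on 2 genes was discarded in the counting is not given in the sources used here. Summed over the 53, normalized levels were 14.2, 12.03 and 12.03 CPM with vehicle and 12.8, 14.6 and 13.4 CPM with SCH, so the groups overlapped. Without SNORA73B, the snoRNA with the most counts, they were 10.97, 9.53 and 9.16 CPM with vehicle and 8.37, 9.07 and 7.89 CPM with SCH, and every SCH sample was then the lower.

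Of 6 snoRNAs that could be tested, 1 rose, 1 fell and 4 did not pass the test, where 58.7% of all tested genes were called in either direction. SNORA73B, in an intron of SNHG3, had 62, 45 and 51 counts with vehicle and 78, 103 and 104 counts with SCH, a log2 fold change of 0.85 ± 0.173 (SE, edgeR adjusted p 1.84e-04). It rose where its host fell, and its sequence is shown for that reason, with the ACA of the box at its 3′ end in capitals (GENCODE 29, GRCh38).
SNORA73B (chr1:28508559-28508762, plus strand): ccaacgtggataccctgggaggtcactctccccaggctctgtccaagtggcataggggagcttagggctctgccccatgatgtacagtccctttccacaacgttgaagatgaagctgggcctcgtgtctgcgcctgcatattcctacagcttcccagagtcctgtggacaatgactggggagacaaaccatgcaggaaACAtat
SNORA71C, in SNHG17, had 65, 61 and 43 counts with vehicle and 40, 25 and 35 with SCH (log2 -0.75 ± 0.234 SE, edgeR adjusted p 0.00865), with the reservation that the SNORA71 family consists of similar copies that can share reads. SNORD104 of SNHG25, the most counted of the others, stood at 47, 31 and 32 counts with vehicle and 40, 39 and 36 with SCH. Such reads can come from unspliced host RNA as well as from the mature snoRNA, and the share of each was not tested.

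Several host genes start back to back with, or overlap, a protein-coding gene on the other strand, and since the library kit does not mark strand, reads in a shared stretch cannot be assigned to a strand. Of 10 such pairs in which both genes were tested, the coding gene was raised in 2, lowered in 4 and did not pass the test in 4, where 58.7% of all tested genes were called in either direction. In 5 pairs the starts lay within 1000 bases. The log2 ratio of host to partner counts within a sample, which no normalization between samples can move, was compared in these 5.

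For GAS5 and the transcription factor gene ZBTB37, 800 bases apart, the log2 ratio was 3.68, 3.57 and 3.42 with vehicle and 2.98, 2.76 and 2.83 with SCH. ZBTB37 itself did not pass the test (log2 0.098, edgeR adjusted p 0.305), although with library size only it passed as raised. For SNHG1 and SLC3A2, the heavy chain of amino acid transporters, 188 bases apart, it was -1.84, -1.89 and -1.77 with vehicle and -2.17, -2.08 and -2.04 with SCH, and SLC3A2 did not pass the test (log2 -0.027). The host thus lost ground to its neighbour in both pairs. For ZFAS1 and the helicase-like gene ZNFX1, 248 bases apart, the ratio was -1.29, -1.22 and -1.54 with vehicle and -2.04, -2.13 and -2.15 with SCH, and ZNFX1 rose (log2 0.25, edgeR adjusted p 1.11e-04). For SNHG19 and the ubiquitin ligase gene TRAF7, 340 bases apart, it was -4.18, -4.28 and -4.37 with vehicle and -5.76, -5.36 and -5.24 with SCH, and TRAF7 rose slightly (log2 0.14, edgeR adjusted p 0.0280), a call that was lost when any of 4 single samples was left out. In these 4 pairs every SCH ratio was below every vehicle ratio, with differences of means of -0.70, -0.27, -0.76 and -1.18. The two-sided exact permutation p was 0.1 for each, the smallest that 3 against 3 samples allow, and 0.125 after Benjamini-Hochberg adjustment over the 5 pairs. The ratios of SNHG9 to RPS2, 99 bases apart, overlapped (exact permutation p 0.4). There the ribosomal protein gene RPS2 fell (log2 -0.45, edgeR adjusted p 7.54e-08) and SNHG9 was barely counted.

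**Figure D3:**
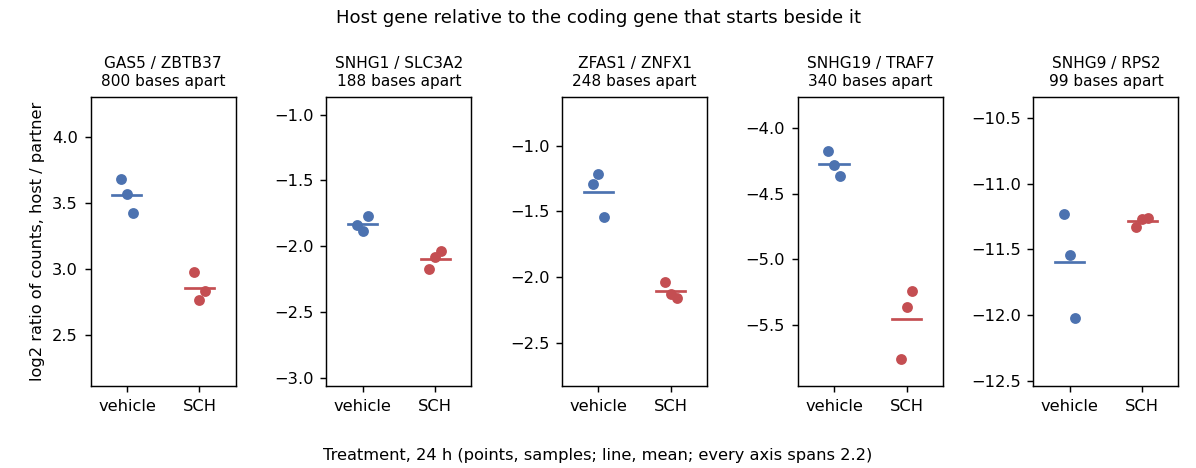
Log2 ratio of host gene counts to the counts of the coding gene that starts beside it, for 5 pairs, in the 3 vehicle (blue) and 3 SCH (red) samples, with a line at the mean and the same span of 2.2 on every axis. The red points lie below the blue ones for GAS5, SNHG1, ZFAS1 and SNHG19, and overlap them for SNHG9.

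The other partners overlap the host without a shared start. FAM69B, on the other strand of SNHG7, fell by 1.00 on the log2 scale and SIL1, on that of SNHG4, fell by 0.77 (edgeR adjusted p 3.11e-06 and 6.11e-10), and both overlap exons of the host, so reads of the pair cannot be told apart there. GLRX5, beside SNHG10, fell by 0.20 (edgeR adjusted p 0.0133), a call that was lost without vehicle replicate 2 or SCH replicate 2 and on the FPKM scales. GLRX5 also overlaps exons of its host SNHG10, and with vehicle it stood at 94.9 CPM on average against 7.41 for SNHG10. TRNAU1AP, beside SNHG12, and EPB41L4A did not pass the test (log2 0.089 and 0.20), although TRNAU1AP passed with library size only. On the same strand, RCC1, whose annotated span holds SNHG3, fell by 0.50 (edgeR adjusted p 1.42e-08) beside -0.30 for SNHG3, and SEC14L1, whose span holds SNHG20, fell by 0.13 (edgeR adjusted p 0.0307). Beside members that were not themselves tested, ACAA2, a thiolase gene that starts 63 bases from SNHG22, rose by 0.33 (edgeR adjusted p 6.04e-05), while MYO5B, also beside SNHG22, and UBE3A, beside SNHG14, did not pass the test (log2 0.18 and -0.076).

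Because a TOP tract is a property of the first transcribed bases, the start regions of the members were read from RefSeq (GRCh38.p14), where 24 of the 28 names matched. A TOP-like start was taken as a C as the annotated first base, followed by at least 4 bases that are each C or T, on the strand of the gene. It was present in 6 of 24 members (25%), in 43 of 63 ribosomal protein genes with an entry (68.3%), in 17 of 93 protein-coding snoRNA hosts (18.3%) and in 1104 of all 27305 start regions (4.04%). The tested members with it were SNHG4, SNHG5, SNHG12, SNHG19 and ZFAS1. They are printed with GAS5, DANCR and SNHG11, which lack it, from 20 bases before the start to 50 bases from the start on, with the longest run of C and T near the start in capitals.
SNHG4 (chr5:139274081-139274150, plus strand): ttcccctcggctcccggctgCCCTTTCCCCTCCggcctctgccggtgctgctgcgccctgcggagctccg
SNHG5 (chr6:85678684-85678753, minus strand): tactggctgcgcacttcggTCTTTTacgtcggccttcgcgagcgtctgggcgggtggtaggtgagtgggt
SNHG12 (chr1:28581824-28581893, minus strand): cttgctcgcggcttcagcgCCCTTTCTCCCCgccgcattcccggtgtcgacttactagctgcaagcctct
SNHG19 (chr16:2155309-2155378, minus strand): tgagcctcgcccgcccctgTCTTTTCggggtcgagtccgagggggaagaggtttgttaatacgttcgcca
ZFAS1 (chr20:49278622-49278691, plus strand): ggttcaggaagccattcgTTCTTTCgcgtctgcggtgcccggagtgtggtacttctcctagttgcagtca
GAS5 (chr1:173868996-173869065, minus strand): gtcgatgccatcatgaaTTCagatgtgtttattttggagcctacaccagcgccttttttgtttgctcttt
DANCR (chr4:52712374-52712443, plus strand): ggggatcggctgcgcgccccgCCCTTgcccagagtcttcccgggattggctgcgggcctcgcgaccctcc
SNHG11 (chr20:38446634-38446703, plus strand): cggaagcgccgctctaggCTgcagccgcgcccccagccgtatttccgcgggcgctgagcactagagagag
All 5 members with a TOP-like start were lowered (median log2 change -0.73), as were 12 of the 14 others (median -0.76), beside 29.4% of all tested genes. The first base is that of the annotation, and a start a few bases away would change the reading, so a missing match says only that these letters are not at this position. The RefSeq start is not always the one in the deposited tables. For GAS5 it lies upstream. It lies well downstream for SNHG20 and for ZFAS1 and SNHG12, both counted here as having a TOP-like start.

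The genes that make up, or work on, the same machinery were taken as lists for comparison. Of 79 ribosomal protein genes, all tested, 71 were lowered and none was raised (median log2 change -0.47), where 29.4% of all tested genes were lowered. RPL3 (-0.96) and RPL34 (-0.79) were among the lowered ribosomal protein genes. Other mRNAs with a TOP tract, mainly translation factors, were lowered in 15 of 15 tested, with a median of -0.47 as well. NPM1, a nucleolar chaperone, fell by 0.78, RACK1, a protein of the small ribosomal subunit that also hosts snoRNAs, by 0.74, and VIM by 0.56. EEF1G was listed at 0 counts in every sample. Set beside these, 16 of the 22 tested host genes had a log2 fold change below the median of the ribosomal protein genes.

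Next came the mRNAs of the proteins that bind the finished snoRNA. Of the 8 core protein genes, 7 were lowered and none raised, with a median of -0.62, beside 29.4% lowered and a median of -0.0034 over all tested genes. On the box C/D side, the methyltransferase gene FBL fell by 0.67, NOP58 by 0.57, NOP56 by 0.54 and SNU13 by 0.41. On the box H/ACA side, GAR1 fell by 0.92, NHP2 by 0.78 and the pseudouridine synthase gene DKC1 by 0.73, while NOP10 did not pass the test (log2 -0.066). NOP56, NOP58 and DKC1 are snoRNA hosts too. Of 13 assembly factors, 9 were lowered and 3 raised (median -0.39), with RUVBL1 at -0.73, NOLC1 at -0.61 and RUVBL2 at -0.55, and ZNHIT3 raised at 0.41.

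The protein-coding snoRNA hosts, ribosomal protein genes left out, were more mixed. Of 102 tested among 116, 60 were lowered, 15 raised and 27 did not pass the test, with a median of -0.24 (48 lowered and a median of -0.13 with library size only). Over all tested genes, 29.4% were lowered and 29.3% raised. Changes among these hosts ran from -3.4 to 0.992 on the log2 scale. RBMX, a splicing regulator, fell by 0.87, and ATP2B4, a calcium pump, rose by 0.95. The nonsense-mediated decay factors showed no common direction, with 8 raised, 4 lowered and 9 that did not pass of 21. That was 38.1% raised and 19.05% lowered, beside 29.3% and 29.4% of all tested genes. The median of these factors was 0.035 and ran from 0.0022 with upper quartile factors to 0.14 with library size only. UPF1, the central helicase, was at -0.023 (edgeR adjusted p 0.740), its kinase gene SMG1 rose by 0.30 (edgeR adjusted p 1.68e-04), SMG5 rose by 0.31, and MAGOHB, of the exon junction complex, and NBAS fell by 0.93 and 0.53. Of 15 tested long non-coding RNAs that host no snoRNA, 3 rose, 4 fell and 8 did not pass the test, with a median of -0.036. Thus 20% rose and 26.7% fell, near the 29.3% and 29.4% of all tested genes. The number that fell was 2 without vehicle replicate 1 or 3 or SCH replicate 1 or 3, and the median was 0.0277 without vehicle replicate 3 and 0.0368 without SCH replicate 2. MIR17HG, the host of a microRNA cluster, fell by 1.59 and CYTOR by 0.68, while MALAT1, an abundant nuclear RNA, rose by 0.96. These lists overlap and none of them was tested against another.

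**Figure D4:**
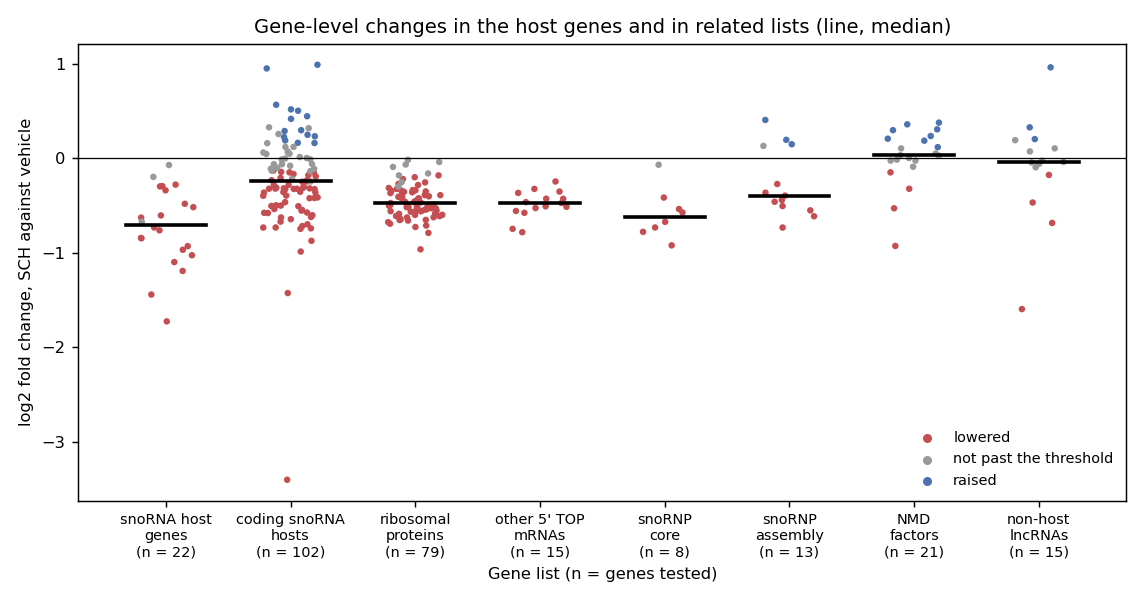
Log2 fold change of SCH against vehicle for every tested gene (points) of the snoRNA host genes and of 7 related lists, coloured by edgeR call, with a line at the median of each list. The medians run from -0.70 for the host genes through -0.47 for the ribosomal protein genes to 0.035 for the nonsense-mediated decay (NMD) factors.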

How the data were processed

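RNA of 6 cultures was sequenced by the study. Per the labels' processing notes, the authors used CASAVA 1.8, HISAT2 2.0.5, featureCounts 1.5.0-p3 and DESeq2 1.20.0 with GRCh38. How featureCounts treated strand or reads on more than 1 gene is not given in the sources used here. The deposited counts are raw reads per gene, and the deposited FPKM are the authors' values per length and depth. The labels give RPMI-1640 as the medium and the study's methods another one. Gene spans equal those of GENCODE 29 for all 58735 genes.

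The counts were analysed with edgeR 4.0.16 (R 4.3.3): TMM factors, filterByExpr, glmQLFit and glmQLFTest without covariates on all 6 samples, two-sided, with Benjamini-Hochberg adjustment over 14736 genes. Within groups, samples differed by more than counting noise (a chi-square of 2.12 to 5.75 for each degree of freedom), so none was counted as a duplicate. P-values measure the spread between 3 cultures per group.

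The members, lists and tests were chosen with earlier results of these data known. Full values were printed for called members with a mean of at least 100 counts, and from each list the 3 changed genes with the smallest p, FBL, NOP56, NOP58, DKC1, UPF1 and SMG1, and every tested partner, except for 1 gene that is not reported here; the remaining core proteins, SNHG20, SNHG21, SNHG11, SNHG9, SNHG19, SNHG26, ZNHIT3, EEF1G, NBAS, the snoRNAs and the same-strand genes were named after their values were seen. Alternatives were RLE and upper quartile factors, library size only, other filters, DESeq2 1.42.0, limma 3.58.1 on log2(FPKM + 1) and log2(FPKM + 0.1), a replicate block, other thresholds and leaving out each sample.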

Additional observations from a re-analysis of the deposited data

How the results depend on the processing

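The number of lowered host genes was 19 under RLE factors, upper quartile factors, both other filters, DESeq2, an adjusted p below 0.01 and the replicate block, 18 with library size only, 20 with limma on either FPKM scale and 18 to 19 when a sample was left out, and none was raised in any of these. With an absolute log2 fold change of at least 1 added it was 5. Without the members that share over 10 percent of their exonic bases, an alternative chosen after seeing the data, it was 11 of 13 tested, with a median of -0.73, and without members under 100 counts on average, also chosen then, 16 of 17. The number of members tested was 27 with no filter and with DESeq2 and 20 with at least 10 counts in every sample. It was 22 or 23 when a sample was left out, and 22 under the other normalizations, limma and the replicate block. The median log2 fold change of the host genes was -0.5972 with library size only, where the median of all genes moved from -0.0034 to 0.0993, and -0.5683 with limma on log2(FPKM + 1). It ran from -0.7121 to -0.644 when a sample was left out. The ratio of the shares of counts ran from 0.6699 to 0.6944 when a sample was left out.

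Of the 19 calls, 18 held in every alternative normalization, filter, tool, block and left-out sample that tested them, at an adjusted p below 0.05. EPB41L4A-AS1 lost its call with library size only (-0.17, edgeR adjusted p 0.0685) and without vehicle replicate 1 (-0.20, edgeR adjusted p 0.0707). SNHG21 passed with limma on both FPKM scales (limma adjusted p 0.00417 and 0.00687). Estimates near 0 changed sign: SNHG11 with library size only (0.0345) and without vehicle replicate 2 (0.0131), SNHG9 without vehicle replicate 1 (0.0321), and SLC3A2 with library size only (0.0761), without vehicle replicate 2 (0.0069) and without SCH replicate 3 (0.0007), and UBE3A with library size only (0.0266). When a sample was left out, SNHG11 ran from -0.1836 to 0.0131, SNHG9 from -0.4126 to 0.0321 and SLC3A2 from -0.0753 to 0.0069. In the same way EPB41L4A ran from 0.0331 to 0.3516, MYO5B from 0.0704 to 0.2781 and UBE3A from -0.113 to -0.0367. With library size only, ZBTB37 (0.20) and TRNAU1AP (0.19) passed and GLRX5 (-0.0923) did not. The list of long non-coding RNAs without snoRNAs had a median of 0.067 and 2 lowered genes under that setting, 2 lowered genes with no filter and with DESeq2, and 2 to 4 lowered genes with medians from -0.058 to 0.0368 when a sample was left out. The summed level of the snoRNAs, as a ratio of SCH to vehicle, was 1.07 and, without SNORA73B, an alternative chosen after seeing the data, 0.8539. TRAF7 lost its call with upper quartile factors (0.1086). The cause of these changes was not tested, beyond the shift of all genes under library size only. Same-numbered samples did not deviate together (correlations 0.046, -0.022 and 0.022), so the numbers were not taken as pairs. With the replicate block 19 host genes were lowered and the median was -0.7031.

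Precision was limited by 3 samples per group and, for SNHG9, SNHG21 and the snoRNAs, by low counts. Lacking strand, counts of overlapping genes are uncertain.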

Other observations

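Genes that received an SNHG symbol after the annotation of the files were outside the rule on names and were looked at after the other values were seen. LRRC75A-AS1, now SNHG29, fell by 0.71 on the log2 scale (edgeR adjusted p 1.25e-11), C6orf48, now SNHG32, by 0.51 (edgeR adjusted p 2.65e-05) and LINC02001, now SNHG30, by 0.56 (edgeR adjusted p 0.00132). AC016708.1, now SNHG31, did not pass the filter on low counts. All 3 that were tested were therefore lowered, where 29.4% of all tested genes were.

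Genes that regulate the translation and stability of TOP mRNAs moved in both directions, with 6 raised and 5 lowered of 13. All tested genes did so too, with 29.3% raised and 29.4% lowered. Changes in this list ran from -2.06 to 2.45 on the log2 scale. LARP1, which binds the TOP tract, fell by 0.83 (edgeR adjusted p 3.54e-13), as did RPTOR, the scaffold of the mTOR kinase complex, by 0.77 (edgeR adjusted p 2.66e-10). SESN3, a sestrin that restrains that kinase, rose by 2.45 (edgeR adjusted p 2.68e-15). Among the genes outside this choice, MTOR itself rose by 0.20 (edgeR adjusted p 0.00215).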
